A study of Drosophila melanogaster with 2 samples.

Results

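The 8 genes described here are amon, Fur1, Fur2, svr, Phm, Pal1, Pal2 and dimm, 7 of which encode enzymes that turn neuropeptide precursors into mature peptides or, for the furins, act on precursor proteins more widely. They are 8 of 13968 protein-coding genes on the 7 chromosome arms of the fly genome. They were chosen by name with earlier results of these data known, so their values are a description and carry no test. Each gene was given every region of the deposited lists whose summit (the position of the highest signal) lay nearest to a transcription start site (TSS) of that gene, among protein-coding genes, or within the gene body.

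The data are chromatin immunoprecipitation followed by sequencing (ChIP-seq) from transgenic Drosophila melanogaster of the strain Gsc-GFP, which carry an insertion targeting Gsc and express a Gsc-eGFP fusion protein. Gsc is the fly homologue of Goosecoid, a homeodomain transcription factor. Chromatin from whole embryos 0 to 24 h old was sonicated to fragments of 200 to 800 bp and precipitated with an anti-GFP antibody. The antibody is given here by the description in the labels, whose antibody field names Gsc instead. There was 1 group of 2 biological replicates, and a second condition or an untreated group was not analysed here. Each replicate mixed all cells of embryos of every age in that span, so binding in a few cells and weak binding in many cannot be told apart, and binding data hold no expression values with which to check a cell type.

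Neuropeptides are made as long precursors that travel through the secretory pathway into dense core vesicles. A prohormone convertase, encoded in flies by amon (the homologue of mammalian PC2), cuts the precursor after pairs of basic residues, and carboxypeptidase D, encoded by svr, trims the basic residues left at the new ends. Many fly neuropeptides are then amidated at the C terminus in successive steps. Phm, a copper- and ascorbate-dependent monooxygenase, hydroxylates the terminal glycine, and a lyase, encoded by Pal1 or Pal2, completes the reaction. Fur1 and Fur2 are furin-like convertases of the general secretory route. The basic helix-loop-helix factor encoded by dimm is expressed in peptidergic neuroendocrine cells and promotes their secretory capacity, and Phm is one of its known targets.

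Of the 8 genes, 4 had a region in the main thresholded list (amon, Pal1, Fur1 and Pal2), each with 1 region. Over all protein-coding genes 9.09% had one by the same assignment. In the conservative thresholded list 2 of the 8 remained, amon and Pal1, against 8.67% of all genes. The thresholded list of replicate 1 alone held regions of 3 of them (amon, Pal1 and Fur1), against 7.0% of all genes, but its Fur1 region is a different one from that of the main list. That of replicate 2 alone held regions of 2 (amon and Pal1), against 5.66% of all genes. Because the genes were chosen from these lists, nothing is read from these shares. Below the threshold, 4 of the 8 genes (amon, Fur1, Phm and Pal2) had candidate regions, 137 in all, against 68.8% of all genes with at least 1. Fur2, svr and dimm had neither a thresholded region nor a candidate in the lists made from both replicates, the conservative ranked list left aside.

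The main list held 1655 regions, 1470 of them on the arms, with a median signal value of 97.3 and a range of 2.03 to 1323. The signal value is the authors' own measure of enrichment per region, on a scale not given in the sources used here. It serves to rank regions within a list. Means, SDs and ratios over the 2 replicates take values from separately made lists, and that these share a scale was not tested. Over the main list, the median signal in the replicates' own lists was 54.9 in replicate 1 and 48.3 in replicate 2. Across the 1409 regions with a value in both, the log2 ratio of replicate 2 to replicate 1 had a median of -0.24 and an SD of 0.61. Of the 1655 regions, 721 (43.6%) overlapped a thresholded region of both replicates' lists, and 436 (26.3%) overlapped one in neither.

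**Figure D1:**
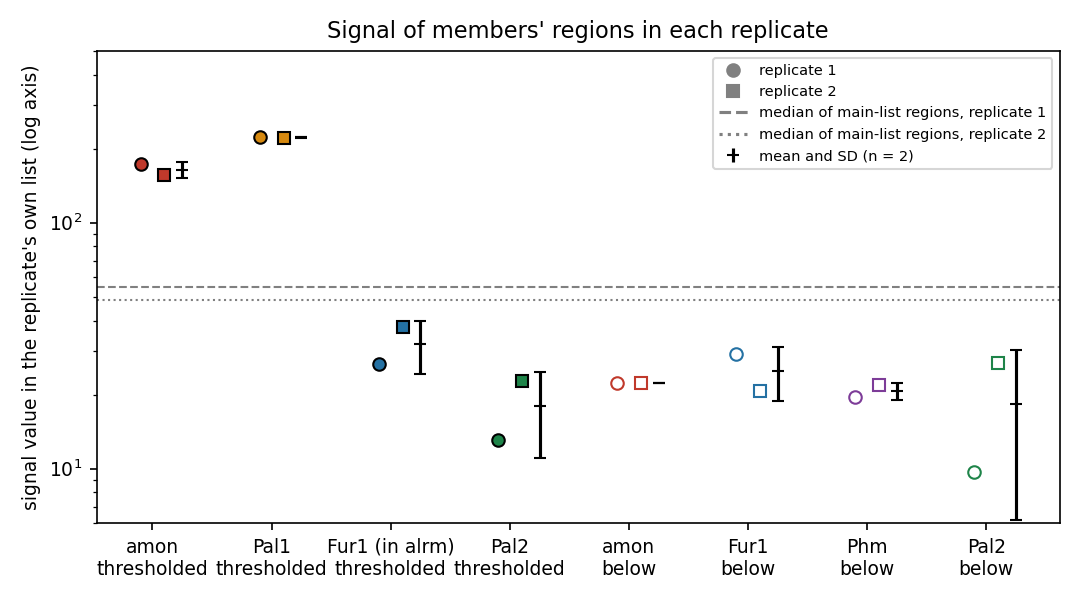
Signal value (log axis) in each replicate's own ranked list, with mean and SD over 2 replicates. Filled symbols show the thresholded region of each gene that has one. Open symbols show the strongest candidate below the threshold of each gene that has candidates (amon, Fur1, Phm and Pal2). The regions at amon and Pal1 lie above the main-list median of both replicates (dashed and dotted lines), and those at Fur1 and Pal2 lie below it in both.

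The convertase gene amon (FBgn0023179, chr3R:26697697-26714159, minus strand, dm6) carried a strong region just upstream of its only TSS. It spanned chr3R:26714274-26714469 (196 bp), with its summit 215 bp upstream of the start and the next start site of another gene, CG6425, 3015 bp away. Its signal of 332 ranked 105 of 1655, and 6.28% of the main list had a higher value. Both replicates placed it among their strongest regions. Its signal was 173 in replicate 1 (rank 135 of 105360 ranked regions) and 156 in replicate 2 (rank 114 of 100186), a mean of 164 ± 12.1 (SD, n = 2). The summits of the replicates' own regions lay 0 and 1 bp from that of the main list, and the next summits of the ranked list, both of candidates below the threshold, were 536 and 1305 bp away. The whole region is shown because it is the one of the 4 thresholded regions that holds more than 1 copy of the homeodomain word TAATCC. Capitals mark that word, which reads GGATTA on the amon sense strand (chr3R:26714274-26714469, minus strand, dm6).

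amon promoter region: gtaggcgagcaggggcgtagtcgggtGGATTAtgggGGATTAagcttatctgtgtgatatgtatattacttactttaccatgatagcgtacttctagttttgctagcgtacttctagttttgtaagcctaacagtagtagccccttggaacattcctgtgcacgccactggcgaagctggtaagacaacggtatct

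TAATCC is the core word of homeodomains with a lysine at the position that also sets Gsc apart from most homeodomains. The 2 copies at amon start at positions 27 and 37 of the printed sequence. Their near edges lie 64 and 54 bp upstream of the summit, outside the 101 bp window (50 bp on either side) used for the word counts. Windows of 196 bp centred on the summit held at least 1 copy, on either strand, in 6.05% of the 1470 main-list regions on the arms and in 5.78% of the 115913 candidates. At least 2 copies stood in 3 of the 1470 (0.204%) and in 0.266% of the candidates. Of 19276 start sites of protein-coding genes, 1261 (6.54%) had at least 1 copy in the stretch 115 to 310 bp upstream, the position of the amon region, and 55 (0.285%) had at least 2. The pair of words is thus uncommon in windows of this length, about as uncommon among candidates as among thresholded regions. These copy counts were made after the sequence had been seen.

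The amon summit itself fell in a direct repeat, which was also noticed after the sequence had been seen. A run of 19 bp occurs at positions 84 to 102 and again, after a spacer of 1 bp, up to position 122, with the summit at position 96 of the printed sequence (chr3R, minus strand).

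amon repeat unit: tagcgtacttctagttttg

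A direct repeat at least this long stood in 13 of the 1470 windows of the same length (0.884%), where the median longest repeat was 8 bp. Whether the repeat bears on how reads were placed was not tested.

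Below the threshold amon had 28 candidates, 20 of them in introns, 4 in coding sequence, 2 in its 3′ UTR, 1 in the promoter and 1 upstream in the 3′ UTR of CG6425. Their signal ran from 2.45 to 44.5 with a median of 22.2, and 15 of the 28 were above the median of all candidates, 19.7. All of them were weaker than the promoter region by a wide margin. The strongest, at chr3R:26703713-26704048, lay in an intron 10278 bp from the start and had the highest score of any candidate of the 8 genes, 433 where the main list begins at 830. In the replicates' own lists it had a signal of 22.3 in replicate 1 and 22.3 in replicate 2. The next in order were an intronic region 1670 bp from the start (40.2, with a value only in replicate 2, 24.0) and one 5868 bp from the start (39.3, with 17.6 in replicate 1 and 14.7 in replicate 2). The 101 bp around the summit of the strongest are printed for comparison with the promoter region (chr3R:26703831-26703931, minus strand, dm6). They hold neither TAATCC nor TAATTA, a word bound by many other homeodomains.

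amon strongest candidate: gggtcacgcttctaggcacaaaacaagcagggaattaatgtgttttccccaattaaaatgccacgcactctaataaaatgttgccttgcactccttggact

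The amidating lyase genes differed from each other. Pal1 (FBgn0283510, chr2R:9959549-9963853, plus strand, dm6) had the strongest region of the 8 genes, chr2R:9959793-9960034 (242 bp). Its signal of 447 ranked 53 of 1655, and 3.14% of the main list was higher. The replicates gave nearly the same value, 223 in replicate 1 (rank 77) and 222 in replicate 2 (rank 59), a mean of 222 ± 0.876 (SD, n = 2). The summit lay 167 bp upstream of the second Pal1 start and 362 bp downstream of the first, in an intron of the longer transcript. The start of Pdrg1, on the opposite strand, was 179 bp away, so by position the region is about as close to Pdrg1 as to Pal1.

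The Pal1 region stood alone. The next summits of the ranked list, at any score, were 12705 and 14468 bp away. The nearer distance was equalled or exceeded at 18 of the 1470 regions on the arms (1.22%), the Pal1 region included. The median distance to the next ranked summit was 674.5 bp. In the list of replicate 2 alone 1 further weak region lay in the gene, with a signal of 7.61.

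Pal2 (FBgn0262728, chr2R:23688077-23690838, plus strand, dm6) had one of the weakest regions of the main list, chr2R:23687672-23688007 (336 bp), with a summit 237 bp upstream of its start and inside the 3′ UTR of the neighbouring sulfotransferase gene St3. Its signal of 45.5 ranked 1595 of 1655, and its score of 878 stood just above the threshold of 830. Its signal was 13.1 in replicate 1 (rank 50973) and 22.7 in replicate 2 (rank 9594), a mean of 17.9 ± 6.80 (SD, n = 2). Neither replicate's own thresholded list nor the conservative list held it, and its scores in the replicates' ranked lists were 28 in replicate 1 and 31 in replicate 2. Taking the overlapping replicate regions of highest signal, in place of those of longest overlap, gave a mean of 25.8.

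In replicate 2, but not in replicate 1, the Pal2 region had a lower signal than the gene's strongest candidate. That candidate, near the gene's 3′ end at chr2R:23690766 and in coding sequence of CG30183, had a signal of 37.6, with 9.72 in replicate 1 and 26.8 in replicate 2. The other 5 candidates of Pal2 lay between 19.4 and 29.4 in the list made from both replicates. In replicate 1, those starting at chr2R:23688299 and chr2R:23689234, with 19.0 and 19.1, had a higher signal than the Pal2 region (13.1). The thresholded region at Pal2 is therefore close in signal to the candidates around it, unlike that at amon, and Pal1 had no candidates.

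**Figure D2:**
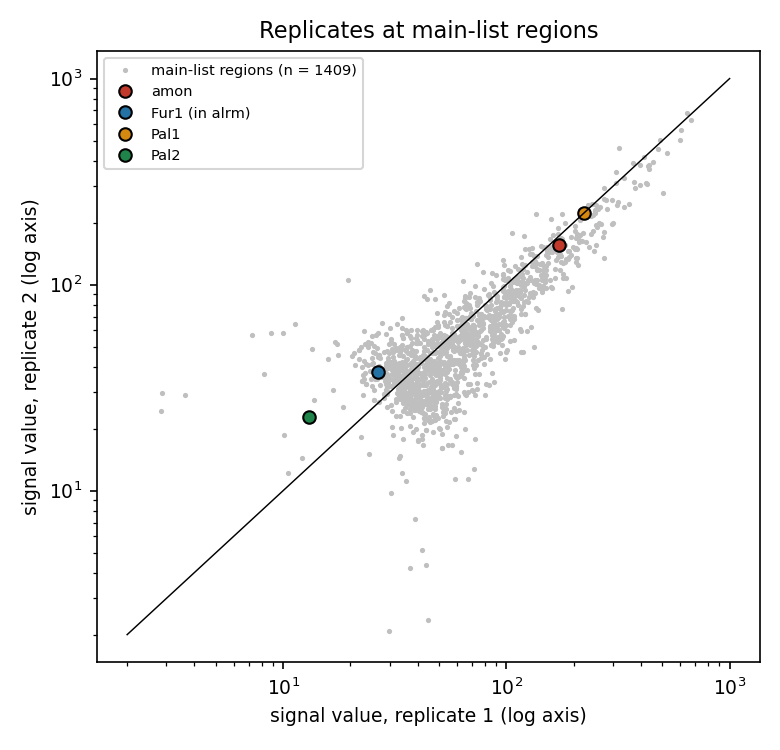
Signal value in replicate 2 against replicate 1 (log axes) for the 1409 main-list regions with a value in both, with the line of equal signal. The regions at amon and Pal1 lie close to the line among the strong regions; those at Fur1 and Pal2 lie above it at the weak end, with log2 ratios of replicate 2 to replicate 1 of 0.50 and 0.79.

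The monooxygenase gene Phm (FBgn0283509, chr2R:23985175-23988455, minus strand, dm6) had no thresholded region and 4 candidates, with signals of 14.3 to 37.8. The strongest lay in Phm coding sequence at chr2R:23985654-23985989, with 19.6 in replicate 1 and 21.9 in replicate 2, a mean of 20.7 ± 1.63 (SD, n = 2). The next lay at the nested gene CG30178 (29.3, with 11.5 in replicate 1 and 14.5 in replicate 2), and the third in an intron 511 bp from the Phm start (28.2, with 10.5 in replicate 1 and 17.6 in replicate 2). Of the 4, 3 were above the candidate median of 19.7, and all were far below the signals of the amon and Pal1 promoter regions. The closest thresholded region downstream of Phm belonged to another gene. It lay 6.64 kb past the end of Phm, at the promoter of Sox14, an HMG-box transcription factor gene, and its signal of 775 ranked 14 of 1655, with 319 in replicate 1 and 458 in replicate 2.

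Of the furin genes, Fur1 (FBgn0004509, chr3R:25347431-25473058, minus strand, dm6) is the longest of the 8, at 125.6 kb, and holds other genes in its introns. Its thresholded region, chr3R:25382403-25382738 (336 bp), fell in one of these, alrm, which encodes a leucine-rich repeat protein of astrocytes. The summit lay in alrm coding sequence 210 bp downstream of the alrm start and 90487 bp from that of Fur1, so Fur1 counts only through its gene body. Its signal of 70.3 ranked 1291 of 1655. In the replicates it was 26.6 in replicate 1 (rank 6941) and 37.7 in replicate 2 (rank 1538), a mean of 32.1 ± 7.81 (SD, n = 2), and it was absent from the conservative list. The 101 bp around its summit are shown because they are protein-coding and high in GC content, unlike the amon and Pal1 summits (chr3R:25382521-25382621, minus strand, dm6).

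Fur1 region in alrm: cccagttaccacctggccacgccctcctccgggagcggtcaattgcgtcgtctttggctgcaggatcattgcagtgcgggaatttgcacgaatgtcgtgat

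The GC content of these 101 bp was 58.4%, against 35.6% at amon, 31.7% at Pal1 and 41.6% at Pal2. The median was 33.7% over the main-list regions on the arms, with quartiles of 27.7% and 42.6%, and 48.5% over the candidates. The Fur1 window thus lies above the upper quartile of thresholded regions, while those at amon, Pal1 and Pal2 lie within the quartiles.

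The remaining Fur1 regions were candidates, 99 in all, of which 81 were intronic and only 1 was nearest to the Fur1 start rather than to a nested or neighbouring gene. Their signal ran from 2.54 to 60.2 with a median of 18.1. The strongest was an intronic region at chr3R:25369240-25369575, with 29.4 in replicate 1 and 20.7 in replicate 2, a mean of 25.0 ± 6.11 (SD, n = 2). Its signal was above that of the thresholded region in alrm in replicate 1 (26.6) and below it in replicate 2 (37.7). The next had 46.9 (18.4 in replicate 1 and 20.9 in replicate 2) and 42.3 (15.8 in replicate 1 and 15.3 in replicate 2). These were spread unevenly along the gene. The first 41.9 kb from the start held 1 candidate, 24.0 kb in and with a signal of 3.33, whereas the middle stretch of the same length held 50 and the last 48. Replicate 1 alone listed a thresholded region in the sparse stretch, at chr3R:25446257-25446560, with a score of 1000 but a signal of 3.62, rank 99641 of 105360. This weak region is the one that counts for Fur1 in the thresholded list of replicate 1, where the region in alrm, with a score of 174, falls short of the threshold. It had no counterpart in the lists made from both replicates, nor had a region of replicate 1 with a signal of 27.5, 23457 bp from the start.

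Fur2 (FBgn0004598, chrX:16373086-16381782, plus strand, dm6) had no region in the main, conservative or replicate thresholded lists. It also had no candidate in the ranked list behind the main list or in that of either replicate. The conservative ranked list was not searched. The next ranked summits were 94.1 kb upstream and 10.5 kb downstream of the gene, which leaves a stretch of 113.4 kb without one. Of 117571 intervals between neighbouring ranked summits, with a median of 620 bp, 18 were at least this long, this one included.

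The carboxypeptidase gene svr (FBgn0004648, chrX:496446-509072, plus strand, dm6) lay in a shorter empty stretch of 29.5 kb. In all, 423 intervals (0.360%), this one included, were at least as long. Thresholded regions of other genes bounded the stretch on both sides. One lay 2.45 kb upstream of svr, in the promoter of CG17896, with a signal of 248, 137 in replicate 1 and 118 in replicate 2. The other lay 14.4 kb downstream at the promoter of elav, which encodes a neuronal RNA-binding protein, with a signal of 270, 128 in replicate 1 and 140 in replicate 2. The replicates' own lists did hold weak regions in svr, 5 in replicate 1 and 2 in replicate 2. The strongest had 26.3 in replicate 1, 191 bp upstream of a start, and 17.8 in replicate 2, 340 bp downstream of one. Replicate 2 also listed a region that overlaps the strongest of replicate 1, with a signal of 8.68 and a summit 206 bp upstream of the start. The lists made from both replicates thus do not hold a place upstream of a start of this gene that both replicates list.

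The transcription factor gene dimm (FBgn0023091, chr2L:21331756-21342155, plus strand, dm6) lay in the longest empty stretch of the 8 genes, 201.9 kb. On the arms 5 intervals, this one included, were at least as long. The next ranked summits were 121.6 kb upstream and 69.8 kb downstream. Replicate 1 listed nothing at dimm, and replicate 2 listed 1 region 4109 bp upstream with a signal of 23.2. Since the files hold no read counts, an interval without a listed summit cannot be told apart from one where reads could not be placed or were left out.

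**Figure D3:**
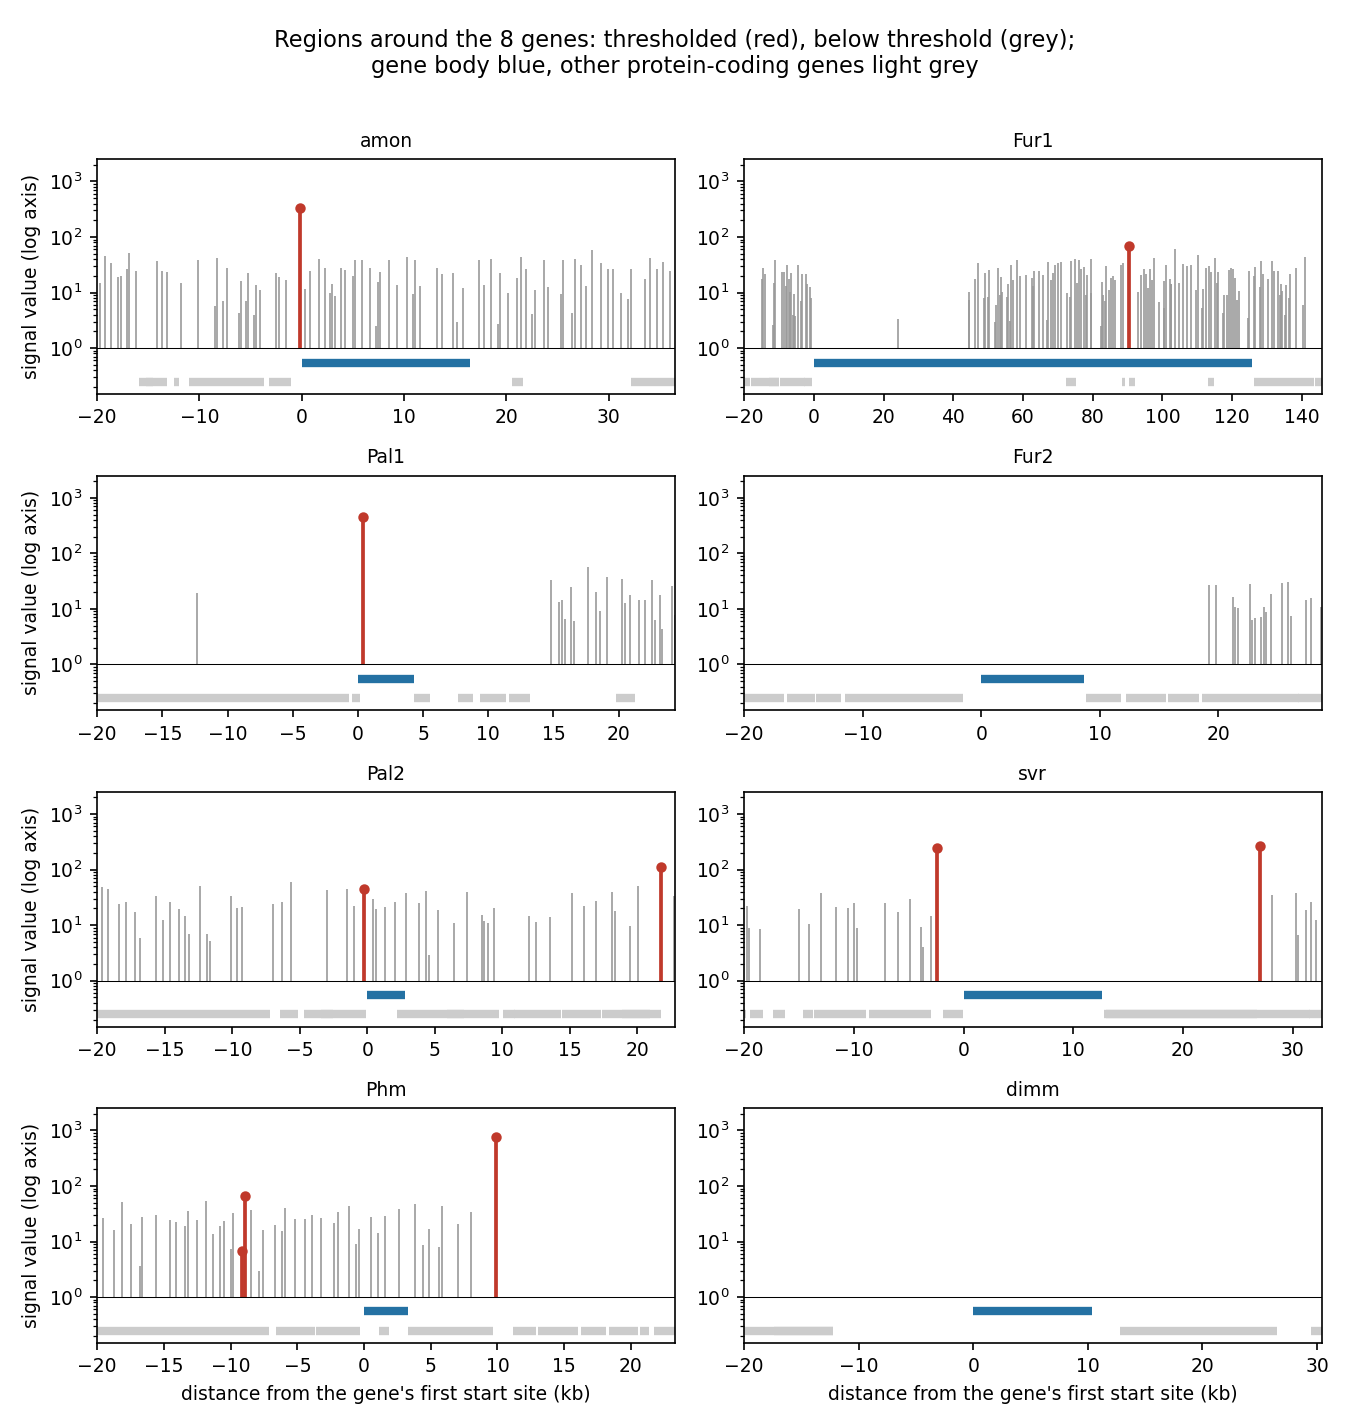
Signal value (log axis) of thresholded regions (red) and candidates (grey) of the lists made from both replicates, against distance in kb from each gene's first start site, with the gene body in blue and other protein-coding genes in light grey. Single strong regions mark amon and Pal1, and candidates fill amon, Pal2, Phm and the later part of Fur1. The gene bodies of Fur2, svr and dimm hold neither kind. Red marks in the Phm and svr panels, and the stronger one in the Pal2 panel, are regions of other genes.

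The density of ranked summits also differed among the 8 genes. Over gene bodies it was 1.64 per kb in amon, higher than in 88.9% of the 7436 genes of 2 kb or more, 1.45 in Pal2 (80.9%), 1.22 in Phm (68.6%) and 0.796 in Fur1 (48.1%). Pal1 had 0.232 per kb (34.1%), all of it from its thresholded region. Fur2, svr and dimm had 0, as did 31.5% of those genes, and the median was 0.842. A thresholded region therefore occurred both where ranked summits were dense, at amon, and where no other was listed, at Pal1. These densities count summits at any score, those of overlapping regions included. Of the 137 candidates of the 8 genes, 82 had a value in both replicates and 11 in neither. Keeping only the strongest of overlapping candidates left 113.

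**Figure D4:**
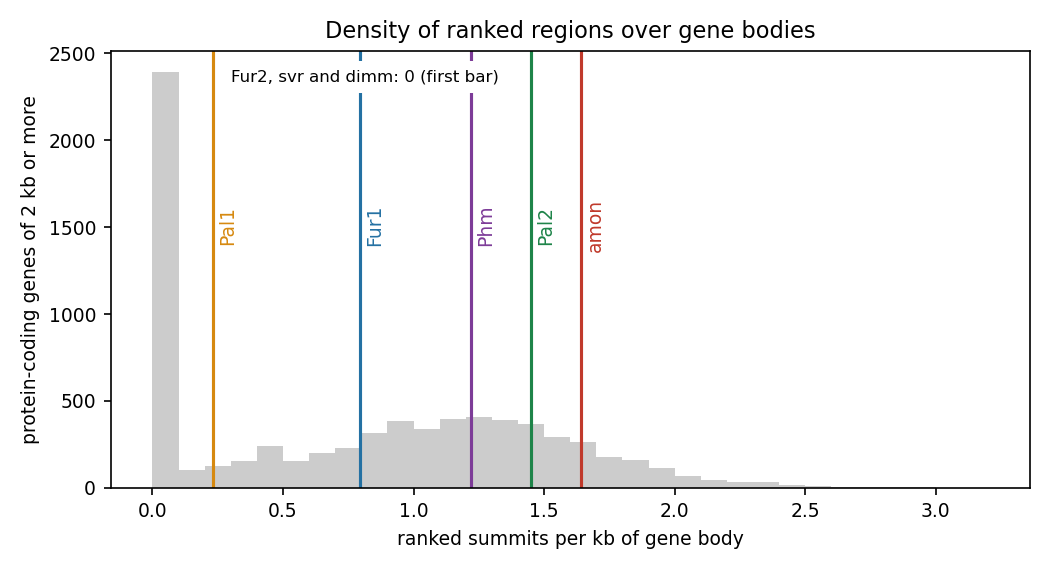
Number of protein-coding genes of 2 kb or more (bars, bin width 0.1 per kb) by ranked summits per kb of gene body; lines mark the 5 genes above 0. Fur2, svr and dimm fall in the first bar, at 0.

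By position, the 4 thresholded regions all lay within 500 bp of a start site of some protein-coding gene, against 532 of 1470 regions on the arms (36.2%), but at Fur1 that start was alrm's. None of the 4 held TAATCC, the word TAATTA or the E box CATATG (both strands) within 50 bp of its summit, where these words stood in 3.67%, 7.89% and 3.54% of the main-list regions on the arms and in 2.90%, 4.53% and 2.32% of the candidates. Beyond that window, the region in alrm held 1 TAATCC, 109 bp from its summit, and those at Pal1 and Pal2 held none. Among the regions of the 8 genes, those scoring nearest the threshold were at Pal2 (878) and Fur1 (925) above it and the intronic amon candidate (433) below it.

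Among 1211 other genes whose strongest thresholded region had a value in both replicates, those nearest to each of the 4 genes in log2 signal were also listed. Genes whose strongest region was the very same one, such as alrm for Fur1, were left out. For amon they were sbb (177 in replicate 1 and 156 in replicate 2, distance 0.034 in log2), and CG4313 and moody, which share 1 region (164 in replicate 1 and 154 in replicate 2, distance 0.082). For Pal1 they were CG15717 and MFS10, again with a shared region (214 in replicate 1 and 229 in replicate 2, distance 0.077), and CG8360 (distance 0.117). The region of Fur1 was closest to one shared by CG14402 and CG31676 (distance 0.056) and to that of the homeobox gene Pph13 (distance 0.056). For Pal2 the nearest, Tektin-C, was at a distance of 0.287, followed by CG12780 (0.531) and Dscam3 (0.832). These distances were all larger than those listed for amon, Pal1 and Fur1.

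The rest of the pathway was read from 6 lists of 124 genes on the arms. Of these, 9 (7.26%) had a thresholded region, against the 9.09% of all protein-coding genes. The conservative list gave a count of 9 as well, but it does not hold the region named below at CCHa2-R. Candidates were assigned to 103 of the 124 (83.1%), against the 68.8% of all protein-coding genes.

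Among 49 precursor genes, 3 had thresholded regions. ITP, encoding ion transport peptide, had the strongest, 134.7 (65.6 in replicate 1 and 81.1 in replicate 2), in an intron 571 bp from a start. RYa, encoding RYamide, had 2, of 124.7 (58.7 in replicate 1 and 54.2 in replicate 2) and 61.9, 58221 and 3102 bp from its start, and spab had 1 of 77.3 (29.1 in replicate 1 and 39.9 in replicate 2). None of these lay in its gene's promoter. Among 40 receptor genes 3 had regions. Dh31-R, the receptor for diuretic hormone 31, had one of 203 in its promoter, 170 bp from the start (96.6 in replicate 1 and 97.6 in replicate 2). CCHa2-R had one of 64.5 (37.5 in replicate 1 and 25.5 in replicate 2) and TkR99D, a tachykinin receptor gene, one of 62.6 (36.2 in replicate 1 and 29.7 in replicate 2).

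The remaining lists were small. Of 14 genes for transport and release of dense core vesicles, Syx1A, encoding the release protein syntaxin, had a region of 89.8 (42.6 in replicate 1 and 49.8 in replicate 2). None of 7 genes supplying copper or ascorbate to Phm had one. Of 7 neprilysin genes, whose products degrade peptides, Nep1 had one of 124 (64.9 in replicate 1 and 61.6 in replicate 2), and of 7 genes for peptidergic cell fate factors, the LIM-homeodomain gene tup had 2, of 91.4 and 80.4. No gene of these 6 lists reached the signal of the amon or Pal1 region.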

How the data were processed

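The labels describe ChIP-seq of 2 biological replicates of whole embryos, in 1 group, on the dm6 build. The aligner and the peak caller were not given in the sources used here. No control library was used directly here. Whether one entered the deposited signal values was not checked. Ranked region lists and thresholded lists by irreproducible discovery rate (IDR) were deposited, both per replicate and from the replicates together. The score in each list is the authors' scaled IDR. The signal value is the authors' measure of enrichment, its scale not given, so ranks are given within a list only. Means, SDs, ratios and distances over the 2 replicates set values of separately made lists beside each other. That these lists share a scale was not tested. The deposited −log10 IDR served as a check of the threshold, and its lowest value over the main list was 2.00. Without read counts in the files, depth is unknown. The pooled ranked lists also hold 16 unnamed columns of values that were not used.

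The annotation was Ensembl release 115 and the genome Release 6. Summits on the 7 arms were assigned to genes with Python 3.11.15, numpy 2.4.6 and pandas 2.3.3, in a procedure tested on simulated data of 2000 regions. The simulated regions all lay close to start sites, so locations other than the promoter were not tried. Candidates were ranked regions below the threshold score of 830 that overlap no main-list region. They were taken from the ranked list behind the main list and from those of the replicates. The conservative ranked list was not assigned to genes. A replicate's value is that of its ranked region with the longest overlap of at least 1 bp. Locations were assigned in the order promoter (within 500 bp of a start), UTR or coding sequence, intron, intergenic. The members, the pathway lists and the words searched were chosen with earlier results of these data known. The text names all 8 genes, their thresholded regions and 3 strongest candidates, the neighbouring genes, the 3 genes nearest in replicate signal, and up to 4 genes per pathway list. The regions named at Sox14, elav and CG17896, the replicate-only regions and the word and repeat counts at amon were chosen after their values were seen. Of 125 listed pathway symbols 1 lies outside the arms and was not used. No test was made, since there is 1 group and regions are not replicates.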

Additional observations from a re-analysis of the deposited data

How the results depend on the processing

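The 4 genes and 4 regions of the main list became 2 genes and 2 regions with gene bodies only (Fur1 and Pal1), with the conservative list and with the stronger 50% of regions (amon and Pal1 in both), and 2 to 3 of each when 1 replicate was left out, without replicate 1 and without replicate 2 in turn. The count of 3 includes Fur1 through a region other than that of the main list, so 2 of the 4 main-list regions (amon and Pal1) were held by either replicate alone. Counts of 3 or 4 genes were found with the nearest start only, summits within 2 kb of a start, midpoints and the strongest of overlapping regions. The 9 pathway genes became 5 with gene bodies only, 4 with the stronger 50% and 6 to 7 without 1 replicate. The share of all genes, 9.09%, was 5.66% to 7.0% without 1 replicate. The replicate mean at Pal2, 17.9, was 25.8 with overlapping regions of highest signal; those at amon, Pal1 and Fur1 kept their values under both other ways of matching. The 4 genes with candidates became 2 among the top 10% by signal (13 regions) and 5 to 7 without 1 replicate, and the 137 candidates became 28 with the nearest start only. The 4 promoter regions became 1 (Pal1) with a window of 200 bp. With first starts only, the Pal1 distance was 179 bp, to Pdrg1, in place of 167 bp. The causes were not tested. No paired analysis was possible because there is 1 group. Depth is unknown, so what it limits cannot be stated.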
